A study of Drosophila melanogaster with 34 samples.

Results

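The genes described here encode the serotonin receptors 5-HT1A, 5-HT1B, 5-HT2A, 5-HT2B and 5-HT7 and the muscarinic acetylcholine receptors mAChR-A and mAChR-B of Drosophila melanogaster. They are 7 of the 17559 genes in the count table, were taken by name, and all 7 passed the filter on low counts, with 141 to 4634 counts per library. The series held 34 samples from nuclei of the mushroom body (MB), the brain centre for olfactory memory: 15 nuclear RNA-seq libraries, 18 ChIP-seq samples of 3 chromatin proteins and 1 sample of input DNA. The RNA libraries came from naïve flies, which were not illuminated, and from flies exposed to 5 min of red light and frozen after 0, 5, 10 or 15 min of rest, with 3 libraries in each of the 5 groups. The ChIP samples of each protein came from naïve flies and from flies exposed to 5 min of red light with 0 min of rest, with 3 samples of each. The binding sites described below were called in the illuminated ChIP samples. The labels give the line of all samples as CS10, and in the study the lines that carried transgenes had been outcrossed to w(CS10), the wild-type control. There, MBp-LexA drove both the nuclear envelope tag FLAG-KASH, by which nuclei were pulled from heads, and CsChrimson, a cation channel opened by red light, and the flies had been fed its cofactor all-trans-retinal. In the ChIP flies, CoRest-C::myc was expressed by MBsw, a second MB driver that is induced by a drug. Each sample pooled many flies. No RNA library came from illuminated flies without CsChrimson or without retinal, so neural activation cannot be told apart from light, handling and time.

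The members encode receptors that span the membrane 7 times and switch on G proteins when serotonin or acetylcholine binds. 5-HT1A, 5-HT1B and mAChR-B act mainly through Gi/o proteins, which lower cAMP, 5-HT7 acts through Gs, which raises it, and 5-HT2A, 5-HT2B and mAChR-A act through Gq, phospholipase C and calcium. The intrinsic MB neurons, the Kenyon cells, are themselves cholinergic, and serotonergic neurons innervate the MB.

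The 250 bases upstream of the annotated start (dm6) are shown for the 4 members on chromosome 3R, because a binding site of CBP, a histone acetyltransferase, covered the start of 3 of these 4 genes and not that of 5-HT2B. Each is written 5′ to 3′ on the strand of the gene, from RefSeq's release of the genome, with GAGAG and TGACG, on either strand, in capitals (CTCTC and CGTCA are their reverse complements).
5-HT2A, chr3R:4612620-4612869, plus strand: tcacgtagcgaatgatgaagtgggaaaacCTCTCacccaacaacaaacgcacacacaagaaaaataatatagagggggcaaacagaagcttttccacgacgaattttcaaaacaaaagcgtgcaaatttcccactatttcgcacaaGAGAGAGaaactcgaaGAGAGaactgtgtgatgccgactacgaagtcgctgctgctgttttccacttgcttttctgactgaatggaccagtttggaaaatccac
5-HT7, chr3R:31016876-31017125, minus strand: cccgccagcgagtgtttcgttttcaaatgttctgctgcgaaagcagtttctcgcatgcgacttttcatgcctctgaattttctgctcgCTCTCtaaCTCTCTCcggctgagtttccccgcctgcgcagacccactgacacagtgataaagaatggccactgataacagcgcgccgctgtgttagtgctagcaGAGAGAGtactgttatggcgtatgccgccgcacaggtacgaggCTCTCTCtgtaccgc
mAChR-B, chr3R:8059034-8059283, plus strand: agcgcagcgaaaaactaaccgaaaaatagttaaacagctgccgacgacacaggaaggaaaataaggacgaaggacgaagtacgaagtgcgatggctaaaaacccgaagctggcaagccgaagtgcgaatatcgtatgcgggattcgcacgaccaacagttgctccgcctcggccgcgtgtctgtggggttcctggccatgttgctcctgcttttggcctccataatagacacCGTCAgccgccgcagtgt
5-HT2B, chr3R:8577955-8578204, plus strand: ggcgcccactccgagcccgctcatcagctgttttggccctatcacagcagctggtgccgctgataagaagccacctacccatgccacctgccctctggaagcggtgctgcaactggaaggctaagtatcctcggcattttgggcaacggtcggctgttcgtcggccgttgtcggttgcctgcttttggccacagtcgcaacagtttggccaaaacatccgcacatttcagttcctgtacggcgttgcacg

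In windows of 300 bases, from 250 before to 50 after the start, GAGAG, the word of the GAGA element, was found in 5 members (5-HT1A, 5-HT1B, 5-HT2A, 5-HT7 and mAChR-A) and in 29.7% of 13945 promoters of protein-coding genes. The words overlapped one another in longer runs upstream of 5-HT2A, 5-HT7 and mAChR-A. TGACG, the core of a cAMP response element, was found in 5-HT1A, 5-HT2B and mAChR-B, and in 23.8% of the promoters. In 5-HT2B it began at base 2 of the gene and so is not in the sequence above. The palindrome TGACGTCA, which holds TGACG on both strands, and the AP-1 word TGANTCA were in no member and in 0.437% and 6.18% of the promoters. TATAAA was found in 5-HT1A and in 45.8% of the promoters. These are matches of letters, searched on both strands, and no more than that.

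Per kb of merged exons, 5-HT2A had the highest level, with a mean of 36.9 normalized CPM per kb over the 15 libraries, where CPM is the count scaled to a common library size. The order continued with mAChR-A at 18.7, 5-HT1A at 15.2, mAChR-B at 9.13, 5-HT1B at 4.52, 5-HT7 at 3.55 and 5-HT2B at 2.32 CPM per kb. Each gene was above the next in all 15 libraries, except 5-HT1B, which was above 5-HT7 in 14. Reads of these libraries came mainly from the 3′ region of a gene, so this order is a description. mAChR-C, the remaining muscarinic receptor of the fly, had 0 to 9 counts per library and was not tested.

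**Figure D1:**
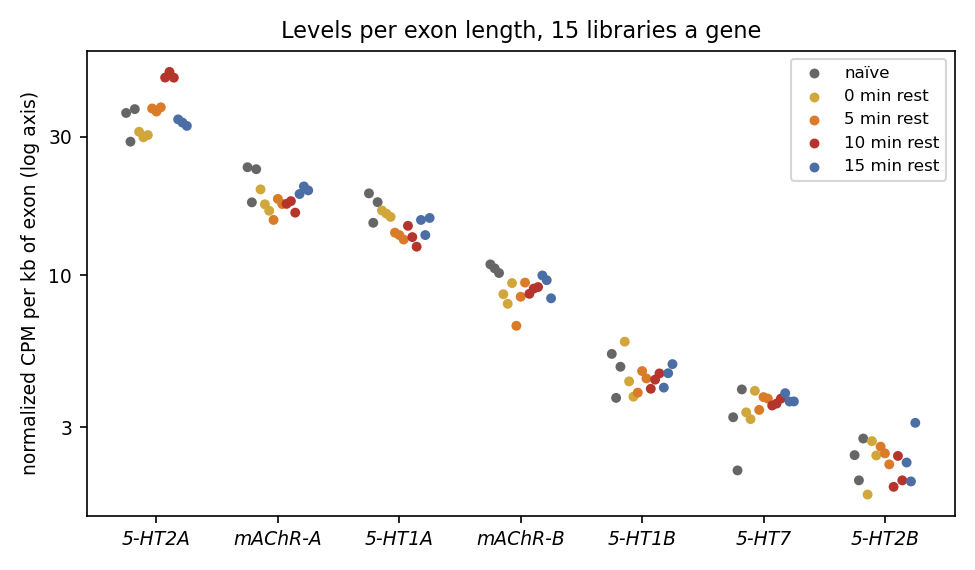
Normalized CPM per kb of merged exons on a log axis for the 7 receptor genes, with 1 point for each of 15 libraries coloured by group. 5-HT2A lies highest, and the ranges over libraries overlap between mAChR-A and 5-HT1A, between 5-HT1B and 5-HT7 and between 5-HT7 and 5-HT2B.

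5-HT2A, a receptor of the Gq class, was the member that rose. Its levels were 196, 156 and 202 CPM in naïve libraries, 169, 162 and 165 CPM with no rest, and 203, 198 and 205 CPM after 5 min of rest. They were 259.8, 272 and 259.6 CPM after 10 min and 186, 182 and 177 CPM after 15 min. All 3 libraries at 10 min were above all 12 others, while those at 15 min lay within the naïve range. Against naïve flies, the log2 fold change at 10 min was 0.51 (SE 0.09, edgeR adjusted p = 7.30e-05), a fold of 1.43 with a 95% interval from 1.26 to 1.62. From 10 to 15 min of rest it fell by 0.54 on the log2 scale (SE 0.09, edgeR adjusted p = 5.81e-05). The other comparisons with naïve flies were not called, with fold intervals from 0.787 to 1.01 with no rest, 0.964 to 1.24 at 5 min and 0.866 to 1.12 at 15 min. Without naïve replicate 2 the value of 5-HT2A with no rest was -0.27 (edgeR adjusted p = 0.0238).

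Steps between successive times were compared after these values had been seen. 5-HT2A rose by a log2 fold change of 0.38 from 5 to 10 min of rest (SE 0.09, edgeR adjusted p = 0.0168). That call was lost without replicate 1 or 2 of either group, with values from 0.36 to 0.40 over the fits without a single library and edgeR adjusted p up to 0.106. From no rest to 5 min the value was 0.29 (SE 0.09, edgeR adjusted p = 0.0746), with all 3 libraries higher.

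**Figure D2:**
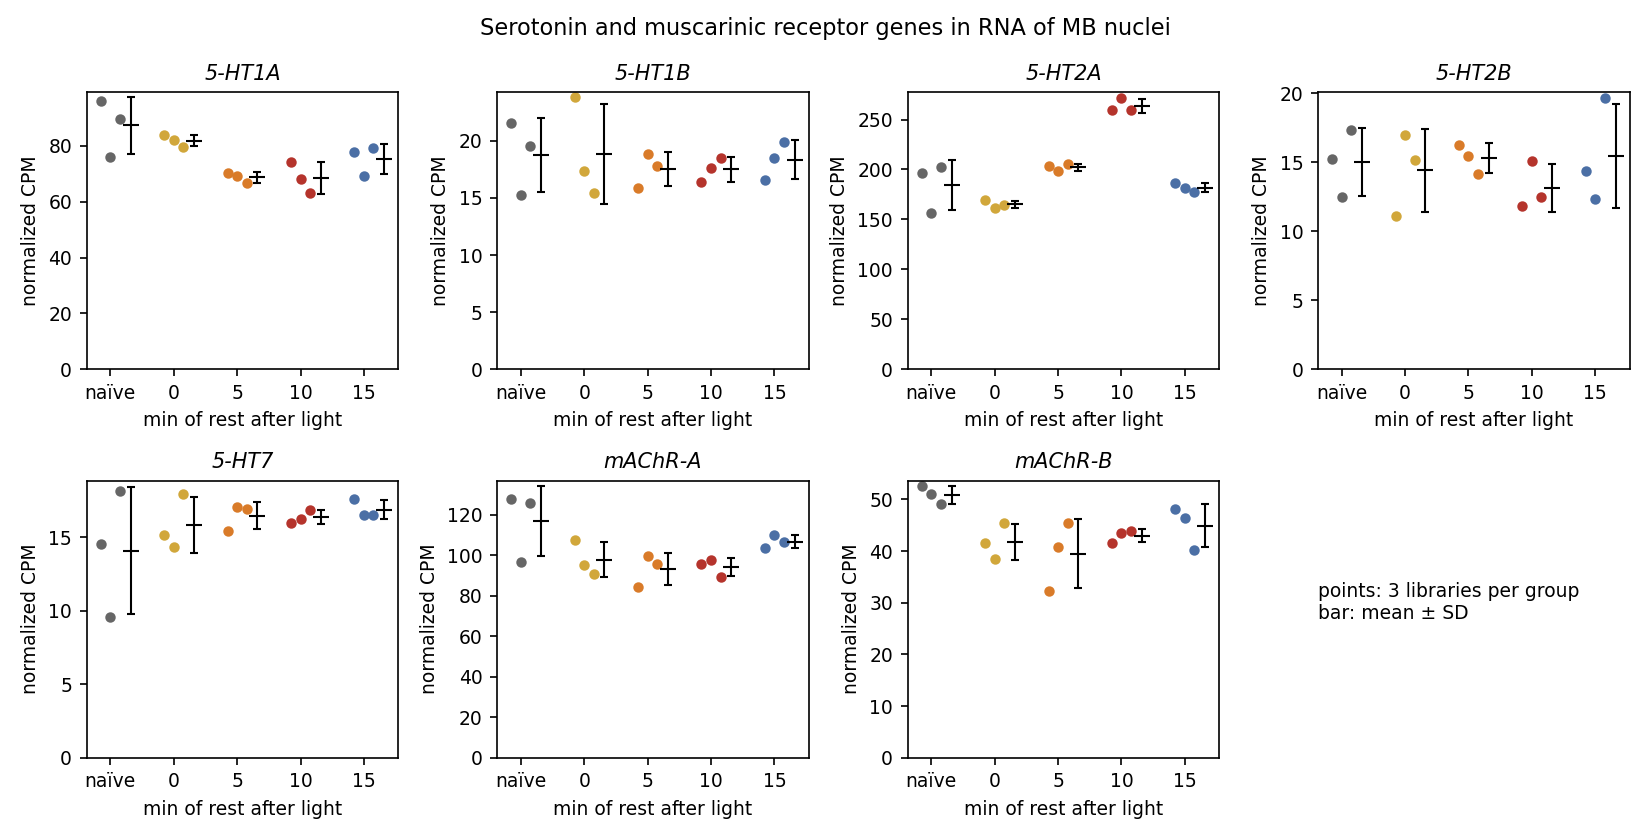
Normalized CPM of each receptor gene in every library, for naïve flies and for 0, 5, 10 and 15 min of rest after light, with the mean and SD of 3 libraries as bars. The 10 min libraries of 5-HT2A stand above all others, and naïve replicate 2 is the lowest naïve library of 5-HT1A, 5-HT1B, 5-HT2A, 5-HT2B, 5-HT7 and mAChR-A.

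5-HT1A, a receptor of the Gi/o class, fell at 5 and 10 min of rest. Its levels were 96.2, 76.2 and 89.7 CPM in naïve libraries, 84.0, 82.0 and 79.8 CPM with no rest and 70.4, 69.1 and 66.7 CPM at 5 min. They were 74.4, 68.0 and 63.0 CPM at 10 min and 77.9, 69.1 and 79.1 CPM at 15 min. All libraries at 5 and 10 min were below the lowest naïve library. The log2 fold change was -0.35 at 5 min (SE 0.10, edgeR adjusted p = 0.0181) and -0.35 at 10 min (SE 0.10, edgeR adjusted p = 0.00937). At 15 min it was -0.21 (edgeR adjusted p = 0.201), and without naïve replicate 2 it was -0.30 (edgeR adjusted p = 0.0458). At 10 min the call was lost without naïve replicate 1 or without 10 min replicate 3, with edgeR adjusted p up to 0.0639. At 5 min it was lost without naïve replicate 1 or 3 or without 5 min replicate 2 or 3, with values from -0.44 to -0.27 and edgeR adjusted p up to 0.106.

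mAChR-A, the muscarinic receptor of the Gq class, fell at the same times. Its levels were 128, 96.8 and 126 CPM in naïve libraries and 107, 95.3 and 90.6 CPM with no rest. They were 84.2, 99.5 and 95.5 CPM at 5 min, 95.7, 97.8 and 89.2 CPM at 10 min and 103, 109.9 and 106 CPM at 15 min. The groups overlapped because naïve replicate 2 lay among the illuminated libraries. The log2 fold change was -0.33 at 5 min (SE 0.10, edgeR adjusted p = 0.0307) and -0.31 at 10 min (SE 0.10, edgeR adjusted p = 0.0251). At both times the call was lost without naïve replicate 1 or 3 and without replicate 1 or 3 of the rested flies, with edgeR adjusted p up to 0.139 at 5 min and 0.121 at 10 min, and in a fit of only the libraries compared (edgeR adjusted p = 0.119 and 0.0690). Without naïve replicate 2 the edgeR adjusted p was 0.000929 and 0.000954, and with no rest the value of mAChR-A became -0.38 (edgeR adjusted p = 0.00861) from -0.26 (edgeR adjusted p = 0.129). The last 111 exonic bases are shared with CG13578 on the other strand, which had 105 to 311 counts per library, and since no strand setting is given in the sources used here, reads of the pair cannot be told apart.

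mAChR-B, the muscarinic receptor of the Gi/o class, was lower in every illuminated library than in every naïve one. Its levels were 52.6, 51.0 and 49.1 CPM in naïve libraries, 41.5, 38.5 and 45.4 CPM with no rest and 32.3, 40.7 and 45.5 CPM at 5 min. They were 41.7, 43.4 and 44.0 CPM at 10 min and 48.2, 46.4 and 40.2 CPM at 15 min. Only the difference at 5 min was called (log2 fold change -0.37, SE 0.12, edgeR adjusted p = 0.0354), and it was lost without naïve replicate 1 or 3 or without 5 min replicate 1 or 2, with edgeR adjusted p up to 0.191. The values were -0.29 with no rest, -0.24 at 10 min and -0.18 at 15 min, with edgeR adjusted p of 0.146, 0.126 and 0.387.

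5-HT1B, 5-HT2B and 5-HT7 were called in none of the comparisons. 5-HT1B, the second serotonin receptor of the Gi/o class, ranged from 15.2 to 23.8 CPM. Its fold interval at 10 min of rest against naïve was 0.734 to 1.18. 5-HT2B, the second serotonin receptor of the Gq class, ranged from 11.1 to 19.7 CPM with an interval of 0.667 to 1.15. 5-HT7, which signals through Gs, ranged from 9.55 to 18.2 CPM with an interval of 0.905 to 1.499. These intervals are wider than that of 5-HT2A, so smaller changes were not detectable at these counts.

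**Figure D3:**
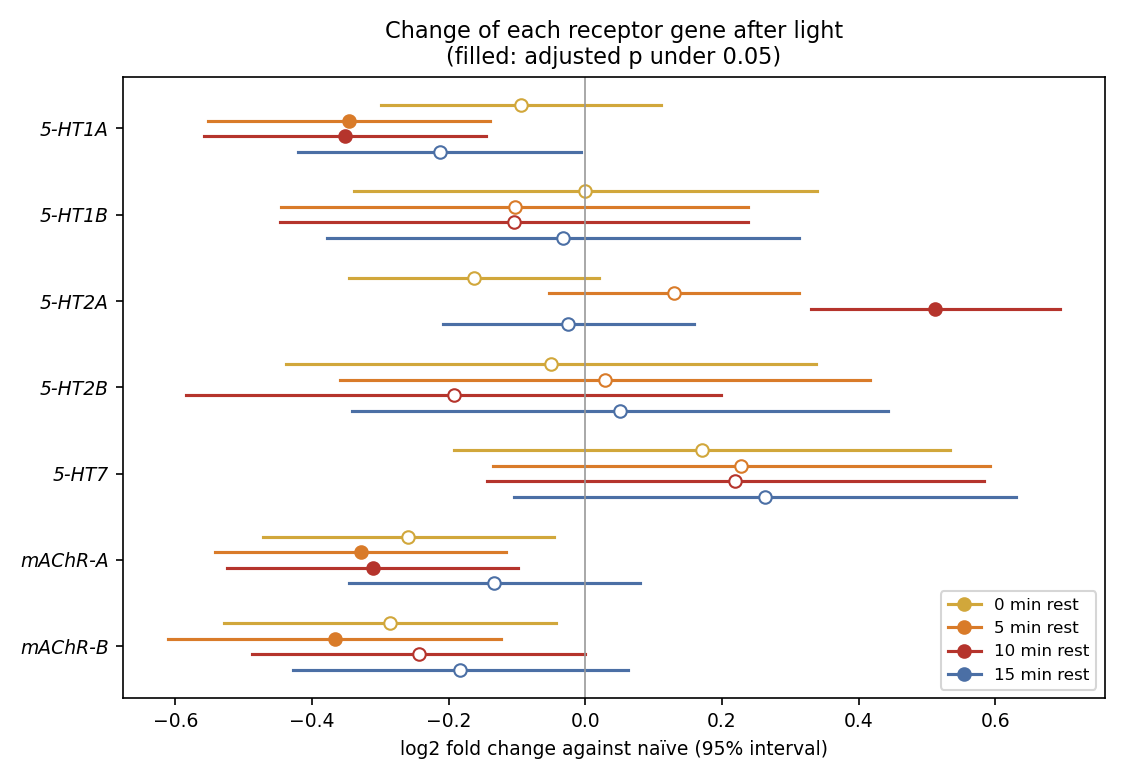
Log2 fold change of each receptor gene against naïve flies with its 95% interval, by min of rest after light, with filled points for adjusted p under 0.05. 5-HT2A at 10 min of rest is the only called point to the right of 0, at 0.51, and the called points of 5-HT1A, mAChR-A and mAChR-B lie between -0.37 and -0.31.

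Counted over the 7 genes, 0 were called with no rest against naïve (8.33% of 11670 tested genes were), where 2 had an unadjusted p under 0.05 and DESeq2 called 0. At 5 min of rest, 3 were called, all lower, where 14.8% of tested genes were called and 6.02% were called lower. At 10 min, 3 of 7 were called where 28.4% of tested genes were, with 1 higher against 14.5% and 2 lower against 13.9%. At 15 min, 0 were called where 9.65% were, with 1 at an unadjusted p under 0.05 and 0 by DESeq2. Between 15 and 10 min of rest 1 was called, 5-HT2A, where 16.9% of genes were called and 10.2% lower. The test of any difference among the 5 groups called 5-HT2A (edgeR adjusted p = 5.20e-06) and 5-HT1A (edgeR adjusted p = 0.0202), where 30.1% of genes were called. From 5 to 10 min 1 was called, where 1.89% were and 1.69% higher. From no rest to 5 min 0 were called by edgeR, where 3.14% were, with 2 at an unadjusted p under 0.05 and 1, 5-HT2A, by DESeq2. The median log2 fold change of the members was -0.19 at 10 min against naïve, and -0.05 over all tested genes.

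Groups that did not overlap were common among all genes. With no rest against naïve this held for 1 member, mAChR-B, and for 23.0% of genes. It held for 5-HT1A and mAChR-B at 5 min (28.1% of genes), and for these and 5-HT2A at 10 min (41.5%). At 15 min it held for mAChR-B (23.5%). It held for 5-HT2A and mAChR-A between 15 and 10 min (36.6%), for 5-HT1A and 5-HT2A between 5 min and no rest (20.0%) and for 5-HT2A between 10 and 5 min (23.1%). The 4 comparisons with naïve flies share the naïve libraries. The share of genes with every illuminated library below or above every naïve one, as for mAChR-B, was not computed. Nor was the share with the 10 min libraries beyond all others, as for 5-HT2A.

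The libraries held 10392334 to 18809246 counts, and the nuclei brought RNA of other cells of the head. Photoreceptor markers (7 of 7 measured, none at 0) summed to 26062 to 30579 CPM in naïve libraries, 25527 to 26390 CPM at 10 min and 38398 to 45962 CPM at 15 min. At 10 min against naïve 0 of 7 were higher and 2 lower, and at 15 against 10 min all 7 were higher. MB neuron markers (12 of 12, none at 0) summed to 2720 to 3309 CPM in naïve libraries, 2673 to 2845 CPM at 5 min, 2843 to 3001 CPM at 10 min and 2838 to 3059 CPM at 15 min, with members going both ways. At 10 min 2 were higher, toy (190 to 265 CPM) and ey (by 0.36 on the log2 scale, to 386 CPM). The 4 lower ones were prt (180 to 93.3 CPM), sNPF (530 to 414 CPM), ChAT (143 to 103 CPM) and VAChT (322 to 271 CPM). From 10 to 15 min, 2 of the 12 MB markers were called higher, 1 lower and 9 were not called. The lower one, in the direction of 5-HT2A, was toy, a transcription factor of MB development. It fell by 0.34 on the log2 scale (edgeR adjusted p = 0.0229).

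Fat body markers (6 of 6, of which Fbp1 had 0 to 6 counts and was not tested) summed to 12093 to 12439 CPM in naïve libraries, 13291 to 13887 CPM at 10 min and 18159 to 19624 CPM at 15 min, and nearly all of the sum came from the yolk protein genes. At 10 min 1 of 5 tested was higher and 2 were lower, Cyp4g1 (42.6 to 1.93 CPM) and Lsp2 (85.1 to 52.9 CPM). Glial markers (7 of 7, none at 0) summed to 1990 to 2396 CPM in naïve libraries and 2434 to 2520 CPM at 10 min. Of these Eaat1 was higher (326 to 457 CPM) and 3 were lower, repo (52.8 to 32.3 CPM), wrapper (62.3 to 44.6 CPM) and alrm (99.1 to 81.4 CPM), while Gs2 had the highest level, at 1299 and 1414 CPM. Muscle markers (4 of 4, none at 0) summed to 376 to 573 CPM in naïve libraries, 546 to 599 CPM at 10 min and 298 to 468 CPM at 15 min. At 10 min against naïve 0 of the 4 were higher and 1 was lower. At 15 against 10 min 3 of the 4 were lower, Mhc, up and wupA, the direction of 5-HT2A at that step. Their part in the results was not tested, and fewer nuclei of a type cannot be told apart from less RNA per nucleus. Naïve replicate 2 stood apart from the other naïve libraries, from which its counts differed by chi-square values of 33.6 and 29.4 per degree of freedom, against 6.20 between those.

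Among the genes that handle serotonin, 3 of 6 were called at 10 min of rest, 2 higher and 1 lower, where 28.4% of all tested genes were called, 14.5% higher and 13.9% lower. Trh, tryptophan hydroxylase, fell from 16.8 to 11.6 CPM (log2 fold change -0.54, edgeR adjusted p = 0.0111) and was higher again at 15 than at 10 min (0.61, edgeR adjusted p = 0.00746). Pu, which starts the synthesis of the hydroxylase cofactor, rose by 0.38 (edgeR adjusted p = 0.000536), and Ddc, the decarboxylase, by 0.37 (edgeR adjusted p = 0.00127). The transporter SerT had a value of 0.06 (edgeR adjusted p = 0.767).

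All 4 tested genes that handle acetylcholine were called at 10 min, 1 higher and 3 lower, beside the same 28.4% of all tested genes. ChAT, which makes acetylcholine and is listed as Cha, fell by 0.48 (edgeR adjusted p = 0.000552), and VAChT, its vesicular transporter, fell by 0.25 (edgeR adjusted p = 0.0322). ChAT and VAChT are also among the MB neuron markers above, so their falls are not a separate observation. CG7708, listed for choline transport, fell by 0.37 (edgeR adjusted p = 0.00259), while Ace, acetylcholinesterase, rose by 0.30 (edgeR adjusted p = 0.00714).

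Of 11 G protein subunits, 1 rose and 6 fell at 10 min, where 14.5% of tested genes were called higher and 13.9% lower. Gbeta5 fell by 0.69 (edgeR adjusted p = 3.19e-06), and Gbeta76C and Ggamma30A, which serve phototransduction, fell by 0.22 and 0.21 (edgeR adjusted p = 0.0498 and 0.0304). The last pair was higher at 15 than at 10 min, by 0.50 and 0.41 (edgeR adjusted p = 6.36e-05 and 0.000153), the time at which all 7 photoreceptor markers were higher.

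Of 18 effectors, 4 rose and 1 fell at 10 min, a share near the 28.4% of all tested genes. Ac13E, an adenylyl cyclase, rose by 0.46 (edgeR adjusted p = 0.000348). The photoreceptor enzymes norpA and inaC had values of -0.07 and -0.05 (edgeR adjusted p = 0.552 and 0.6997). Of 5 receptor regulators, 1 rose and 1 fell at 10 min, beside the same 28.4%. Gprk2, a kinase of G protein-coupled receptors, rose by 0.46 (edgeR adjusted p = 0.000165) and RSG7, a regulator of G protein signalling, fell by 0.36 (edgeR adjusted p = 0.0148). The arrestin krz had a value of 0.18 (edgeR adjusted p = 0.163).

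Of 9768 genes searched, those whose log2 CPM over the 15 libraries was most like that of 5-HT2A were CG34398 (Pearson r = 0.98), CG11073 (r = 0.96) and CG10625 (r = 0.93). For mAChR-A they were mspo (r = 0.95), Rab26 (r = 0.92) and CG32815 (r = 0.91), and for 5-HT7 Wnk (r = 0.94), RhoGAP92B (r = 0.90) and spin (r = 0.89). For 5-HT1A they were Syt14, Rop and Syngr (r = 0.88, 0.86 and 0.85), and for mAChR-B Mgat1, CG16941 and CG1998 (each r = 0.84 to 0.86). For 5-HT1B they were CR18217, SoxN and p (r = 0.80, 0.77 and 0.75), and for 5-HT2B CG12851, Inx7 and CG9515 (r = 0.74, 0.73 and 0.70). The points share libraries and the group structure, and the highest of many values was taken each time.

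CBP, a histone acetyltransferase, had a site in the body or the 1 kb upstream of 5 of the 7 members, where 43.3% of 11459 tested genes with a position had one. All members are at least 10 kb long, and of the 1868 tested genes of that length 79.4% had one. The deposited lists hold sites found in at least 2 of 3 illuminated replicates, without replicate values, so no test was made. Each of the 5 genes had 1 site, and it covered the annotated start at the 5′ end of the gene. 5-HT2A and mAChR-B have 2 annotated start sites each. The CBP site covered 1 of the 2 at 5-HT2A and both at mAChR-B.

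The strongest site was at mAChR-A (chr2R:24388759-24390633), with a fold enrichment of 24.0 over 1875 bp and a summit 672 bases into the gene, in the exon of the 5′ UTR. The start of lncRNA:CR44813, on the other strand, lay 1155 bp from this summit, and which gene the site serves was not tested. Of all CBP sites, 88.5% were at or below the mAChR-A site. Those at 5-HT7 (chr3R:31016736-31017197), 5-HT1A (chr2R:19066899-19067299) and 5-HT2A (chr3R:4612611-4612972) had fold enrichments of 7.99, 5.95 and 5.80, near the median of the list of 7.17. Their summits were 72, 82 and 47 bases upstream of the start. The site at mAChR-B (chr3R:8059077-8059371) had a fold enrichment of 3.38, with 9.2% of sites at or below it and its summit 122 bases upstream. The sites at 5-HT2A, 5-HT7 and mAChR-B lie over the upstream sequences printed above.

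**Figure D4:**
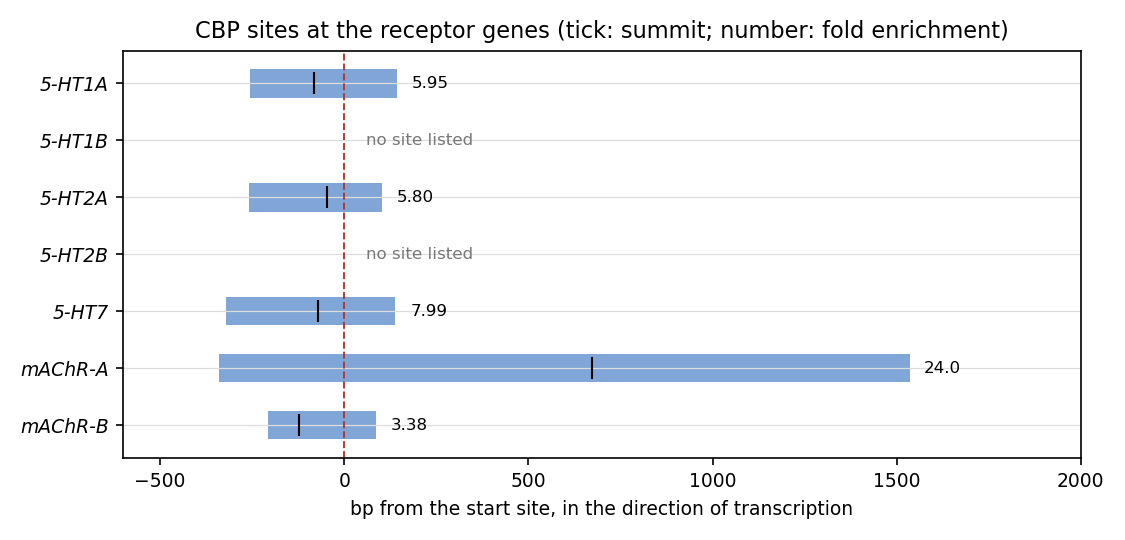
Extent of the CBP sites at the receptor genes in bp from the annotated start, in the direction of transcription, with the summit as a tick and the fold enrichment as a number. All 5 sites cover the start at the 5′ end of the gene, and the site at mAChR-A is the widest, at 1875 bp.

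5-HT1B (chr2R:19022325-19032642, minus strand) and 5-HT2B (chr3R:8578205-8629996, plus strand) had no CBP site, and the nearest lay 34257 and 28602 bp from the gene. CoRest-C, a part of a repressor complex, and the histone deacetylase Rpd3 had a site at 0 of the 7 members, where 13.2% and 34.2% of tested genes had one, and 23.3% and 39.1% of those of at least 10 kb. The nearest Rpd3 site to any member lay 7100 bp from 5-HT1A, and the nearest CoRest-C site 11736 bp from mAChR-A. A list of called sites does not show that signal below the calling threshold is absent.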

How the data were processed

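Nuclear RNA and ChIP sites of MB nuclei were analysed from tables. The authors trimmed reads, mapped them to dm6 with STAR, and deposited counts of reads on exons per gene from HTSeq, without normalization; the strand setting is not given in the sources used here. For ChIP, the authors deposited sites called by MACS with their fold enrichment (a ratio) and the −log10 of their p-value. The deposited table of p-values and log2 fold changes from the authors' own DESeq2 comparison was not used, and nor was any read coverage. Groups and replicate numbers came from the sample labels.

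Counts were scaled by TMM and fitted in edgeR 4.0.16 (R 4.3.3, limma 3.58.1) with the quasi-likelihood test in 1 fit of 15 libraries without covariates; the default filter by group kept 11670 of 15634 genes with at least 1 count. Benjamini-Hochberg adjustment ran over all genes tested, and an adjusted p under 0.05 was called. Tests were two-sided. The standard error was taken as the size of the log2 fold change over the root of its F statistic. Totals of 10392334 to 18809246 counts and a coefficient of variation between replicates of 13.4% set the precision, and since only sample labels define replicates, p-values measure the spread between these samples. Replicates differed by more than sampling noise. Replicate numbers were checked for pairing: deviations of same-numbered libraries from group means correlated between -0.10 and 0.04, so they were not taken as pairs. Of 7 comparisons of 2 groups, 2 were added after the data were seen.

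Named genes were all members, the 3 most alike genes of each by Pearson r among genes with a mean log2 CPM of at least 1 (prior count 2), at most 3 per pathway list by the test of any difference, and Trh, SerT, ChAT and VAChT. Members and lists were chosen with earlier results of these data known. A site counted for a gene when it overlapped the body or 1 kb upstream by at least 1 bp. Positions are those of BDGP6 and RefSeq Release 6, the assembly of dm6. Alternatives were other scalings and filters, DESeq2 1.42.0, fewer libraries, a replicate block, stricter thresholds and other site rules. The test and the overlap step were tested on simulated data.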

Additional observations from a re-analysis of the deposited data

Results flagged for a closer look

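The change of 5-HT2A differed between times, by tests of the difference itself. From 10 to 15 min of rest its log2 fold change was -0.54 (edgeR adjusted p = 5.81e-05, lower in 3 of 3 libraries), and leaving out single libraries kept it between -0.55 and -0.51 with the call in 6 of 6 fits. From 5 to 10 min of rest it was 0.38 (edgeR adjusted p = 0.0168, higher in 3 of 3 libraries), a comparison chosen after seeing the data, and 2 of 6 such fits kept the call.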

How the results depend on the processing

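The calls of 5-HT2A at 10 min of rest against naïve and at 15 against 10 min held under all 8 other scalings, filters, tools and models and without each library. Its largest fold is under 1.5, so a minimum fold change of 1.5 left 0 members called at 5 and 10 min against naïve, at 15 against 10 min and at 10 against 5 min. An adjusted p under 0.01 left 0 at 5 min against naïve, 0 at 10 against 5 min and 1 for any difference among groups. Fitting only the libraries compared left 0 members called at 5 min against naïve, ended the call of mAChR-A at 10 min against naïve (edgeR adjusted p = 0.0690) and gave 1 at 5 min against no rest, as DESeq2 did (1). Library size alone gave 4 members for any difference and added mAChR-B at 10 min against naïve (edgeR adjusted p = 0.0195), and it moved the median of all tested genes at 10 min against naïve from -0.05 to -0.17. The cause was not tested.

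Without single libraries, members called ranged from 0 to 3 at 5 min against naïve (0 without naïve replicate 1 or 3, and 1 without any 5 min library), from 1 to 3 at 10 min (1 without naïve replicate 1 or 10 min replicate 3), from 0 to 2 with no rest and from 0 to 1 at 15 min (the higher counts without naïve replicate 2), from 1 to 3 for any difference and from 0 to 1 at 10 against 5 min.

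Of 392 single-gene values under other settings, 16 changed sign, all of values that were not called. With library size alone 5-HT2B was -0.067 at 5 min and -0.039 at 15 min against naïve, and mAChR-A -0.0076 at 10 against 5 min; upper quartile scaling gave -0.020 for 5-HT2B at 5 min. At 10 against 5 min, 5-HT1A, 5-HT1B and 5-HT7 became 0.016, 0.020 and 0.012 with DESeq2 and 0.016, 0.020 and 0.012 with RLE scaling, 5-HT1B 0.0036 with every gene kept, 0.0056 with at least 10 counts in every library and 0.0017 with only the libraries compared, and 5-HT1A 0.0013 with at least 10 counts. 5-HT2A at 15 min against naïve became 0.0014 with only the libraries compared. With the replicate number as a block, 5-HT1B with no rest became 0.0010; the block changed no count of members called, and called 3213 genes at 10 min against naïve in place of 3313.

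Of 294 values without a single library, 35 changed sign, none of them of a called value. Against naïve, 5-HT1B ranged from -0.20 to 0.12 with no rest, -0.24 to 0.015 at 5 min, -0.24 to 0.013 at 10 min and -0.16 to 0.085 at 15 min. 5-HT2B ranged from -0.18 to 0.098, -0.094 to 0.14 and -0.17 to 0.19 at no rest, 5 and 15 min, 5-HT7 from -0.046 to 0.39 with no rest and 5-HT2A from -0.13 to 0.044 at 15 min. From no rest to 5 min, 5-HT1B ranged from -0.23 to 0.094, 5-HT2B from -0.075 to 0.21, 5-HT7 from -0.0090 to 0.16, mAChR-A from -0.12 to 0.00053 and mAChR-B from -0.20 to 0.045. From 5 to 10 min, 5-HT1A ranged from -0.063 to 0.056, 5-HT1B from -0.064 to 0.056, 5-HT7 from -0.051 to 0.019, mAChR-A from -0.047 to 0.068 and mAChR-B from -0.00022 to 0.24.

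With only CBP sites above the median fold enrichment, 2 members, 5-HT7 and mAChR-A, had a site; the other site rules left 5, and 0 for CoRest-C and Rpd3. With the longest transcript as length, 5-HT2A was at 45.8 CPM per kb and the order of the members was the same.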
